A study of Mus musculus with 15 samples.

Results

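CD300 and TREM receptors are cell surface proteins of myeloid cells, and 9 genes are described here across 5 groups of macrophages. They are the CD300 family members *Cd300a*, *Cd300e*, *Cd300lb*, *Cd300ld* and *Cd300lf*, the TREM family members *Trem1*, *Trem2* and *Treml4*, and *Tyrobp*, which encodes the adaptor through which several of them signal. They were taken as the rows of the raw count matrix whose Ensembl mouse identifiers carry these symbols, 9 of 53465 genes in all, and each symbol matched 1 row. They were chosen by their measured levels and differences between these groups in earlier work on the same libraries, so that their levels and differences are given as a description without a test.

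Receptors of both families carry a single immunoglobulin-type domain outside the cell. An inhibitory receptor such as CD300A or CD300LF has tyrosine motifs (ITIMs) in its tail that recruit phosphatases. An activating receptor has a short tail and pairs with an adaptor, most often TYROBP (also called DAP12), whose tyrosine motif (ITAM) recruits the kinase SYK. In macrophages these receptors bind lipids, lipoproteins and material of dying cells, and they set the balance between activating and inhibitory signals.

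BMDMs, macrophages grown from mouse bone marrow with M-CSF (20 ng/ml, 7 days), were left untreated (control) or cultured for 24 h with 10 ng/ml of IL-4, with 40 ng/ml of IL-13, or with the same dose of either one plus 40 ng/ml of IL-6 (the IL-4/IL-6 and IL-13/IL-6 groups). Cells of all groups came, by the methods of the study, from mice aged 8 to 12 weeks that carry a knocked-in fluorescent reporter. RNAseq was done on 3 replicates per group, 15 libraries in all, and no group received IL-6 alone, so that the effect of IL-6 is read here only on top of IL-4 or of IL-13. The 4 comparisons ask how IL-4 and IL-13 change the cells and what the co-addition of IL-6 adds to either.

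The libraries held between 17001352 and 18918686 counts. The 8 macrophage markers, among them *Adgre1*, *Csf1r*, *Cd68*, *Itgam*, *Fcgr1*, *Mertk* and *Cd14*, were all above 3 counts in every group, and their summed level lay between 5101 and 6501 normalized CPM (CPM, counts relative to the library total, after TMM scaling) in all libraries. Replicate 2 of IL-4/IL-6 and replicate 1 of IL-13 stood apart from the other replicates of their groups (mean chi-square per gene between 17.1 and 46.7 for pairs with one of these libraries, between 2.68 and 7.96 for the other pairs), and values of *Trem1*, *Trem2*, *Tyrobp* and *Cd300c2* are given with and without them. The study calls its replicates biological and speaks in general of independent experiments. Whether the libraries of one group came from separate mice or cultures is not stated for the RNAseq, and p-values measure the spread among these libraries.

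The 5 CD300 genes lie in one cluster on chromosome 11, which spans 244.0 kb and holds further family members between them. In GRCm38, *Cd300a* is at chr11:114890041-114904654 on the forward strand, and on the reverse strand follow *Cd300lb* at chr11:114922781-114934386, *Cd300ld* at chr11:114982274-114989922, *Cd300e* at chr11:115051917-115062177 and *Cd300lf* at chr11:115116214-115133992. The TREM genes *Trem1* (chr17:48232768-48246924), *Treml4* (chr17:48264295-48275360) and *Trem2* (chr17:48346401-48354147) follow in this order on the forward strand of chromosome 17, with *Trem3* and *Treml2* in the gaps between them, and *Tyrobp* is at chr7:30413760-30417585 on the forward strand. All 9 are protein-coding genes, and none shares exon bases with another annotated gene. Of the 50-base stretches of their transcripts, 3.45% of *Cd300a*, 3.89% of *Cd300ld* and 2.44% of *Cd300lf* also occur in another gene, whereas none do for the other 6 genes.

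The promoters of the 5 CD300 genes are shown because these neighboring genes took opposite directions in the data below. The sequences are the RefSeq promoter windows of GRCm38.p6, read 5′ to 3′ on the strand of the gene, as far as they lie upstream of both the RefSeq start and the GENCODE start: chr11:114989923-114990136 for *Cd300ld*, chr11:114934387-114934621 for *Cd300lb*, chr11:115062178-115062289 for *Cd300e*, chr11:114889791-114890040 for *Cd300a* and chr11:115133993-115134242 for *Cd300lf*. Capitals mark a match to one of the 3 motifs searched on both strands. The first 3 belong to genes that were higher with IL-4 and IL-13 and lower once IL-6 was added, the last 2 to genes that were lower with either cytokine.
Cd300ld: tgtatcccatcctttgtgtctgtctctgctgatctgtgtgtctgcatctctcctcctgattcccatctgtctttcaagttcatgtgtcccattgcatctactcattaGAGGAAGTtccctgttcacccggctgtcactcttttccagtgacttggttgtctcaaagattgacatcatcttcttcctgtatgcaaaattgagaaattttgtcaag
Cd300lb: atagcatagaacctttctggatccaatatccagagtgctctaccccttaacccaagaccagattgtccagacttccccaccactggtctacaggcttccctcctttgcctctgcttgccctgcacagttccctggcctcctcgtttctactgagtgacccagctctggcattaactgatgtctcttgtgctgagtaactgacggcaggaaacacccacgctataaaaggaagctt
Cd300e: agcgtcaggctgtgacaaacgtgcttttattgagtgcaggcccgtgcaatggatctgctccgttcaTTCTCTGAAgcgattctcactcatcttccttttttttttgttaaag
Cd300a: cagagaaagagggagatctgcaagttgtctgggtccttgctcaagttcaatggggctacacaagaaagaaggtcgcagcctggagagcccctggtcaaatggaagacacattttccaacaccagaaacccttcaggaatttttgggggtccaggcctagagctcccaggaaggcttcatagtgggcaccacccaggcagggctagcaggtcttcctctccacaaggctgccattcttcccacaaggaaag
Cd300lf: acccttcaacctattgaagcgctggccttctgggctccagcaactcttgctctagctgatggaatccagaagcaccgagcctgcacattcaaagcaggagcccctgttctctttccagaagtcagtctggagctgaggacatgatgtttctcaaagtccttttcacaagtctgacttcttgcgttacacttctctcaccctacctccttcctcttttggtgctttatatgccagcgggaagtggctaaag

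The motifs were TTCNNNNGAA, the spacing that STAT6 (the factor activated by IL-4 and IL-13) is known to prefer, TTCNNNGAA, the spacing preferred by other STAT proteins including STAT3 (activated by IL-6), and GAGGAAGT, a site of the type bound by the macrophage factor PU.1. The STAT6-type letters were in none of the 250-base upstream windows of the 8 members with an entry, and they occur in 5.85% of 32851 windows of all genes. The STAT-type letters (7.02% of all windows) were found as TTCTCTGAA in the *Cd300e* window, 176 bases upstream of the RefSeq start, and as TTCAGAGAA in the *Trem1* window, 163 bases upstream. GAGGAAGT (2.44% of all windows) was found 136 bases upstream of *Cd300ld*, and also 180 bases upstream of *Cd300ld3*, *Cd300ld4* and *Cd300ld5*, whose transcripts are near copies of one another. These matches describe the letters only.

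All 9 genes passed the count minimum and were measured, but at very different levels. Per gene length, on the scale of the deposited FPKM, the adaptor *Tyrobp* was the most abundant of the 9 in untreated cells (968 ± 45.6 FPKM, mean ± SD, n = 3, as are all such values below). It was followed by *Trem2* (188.5 ± 5.74), *Cd300lb* (98.9 ± 1.23), *Cd300a* (71.7 ± 3.37), *Cd300ld* (28.7 ± 2.17) and *Cd300lf* (15.5 ± 0.476). *Treml4* (1.26 ± 0.265), *Trem1* (0.423 ± 0.0875) and *Cd300e* (0.225 ± 0.0869) were near the limit of measurement in control. These last 3 passed the count minimum only through the groups in which they were high.

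**Figure D1:**
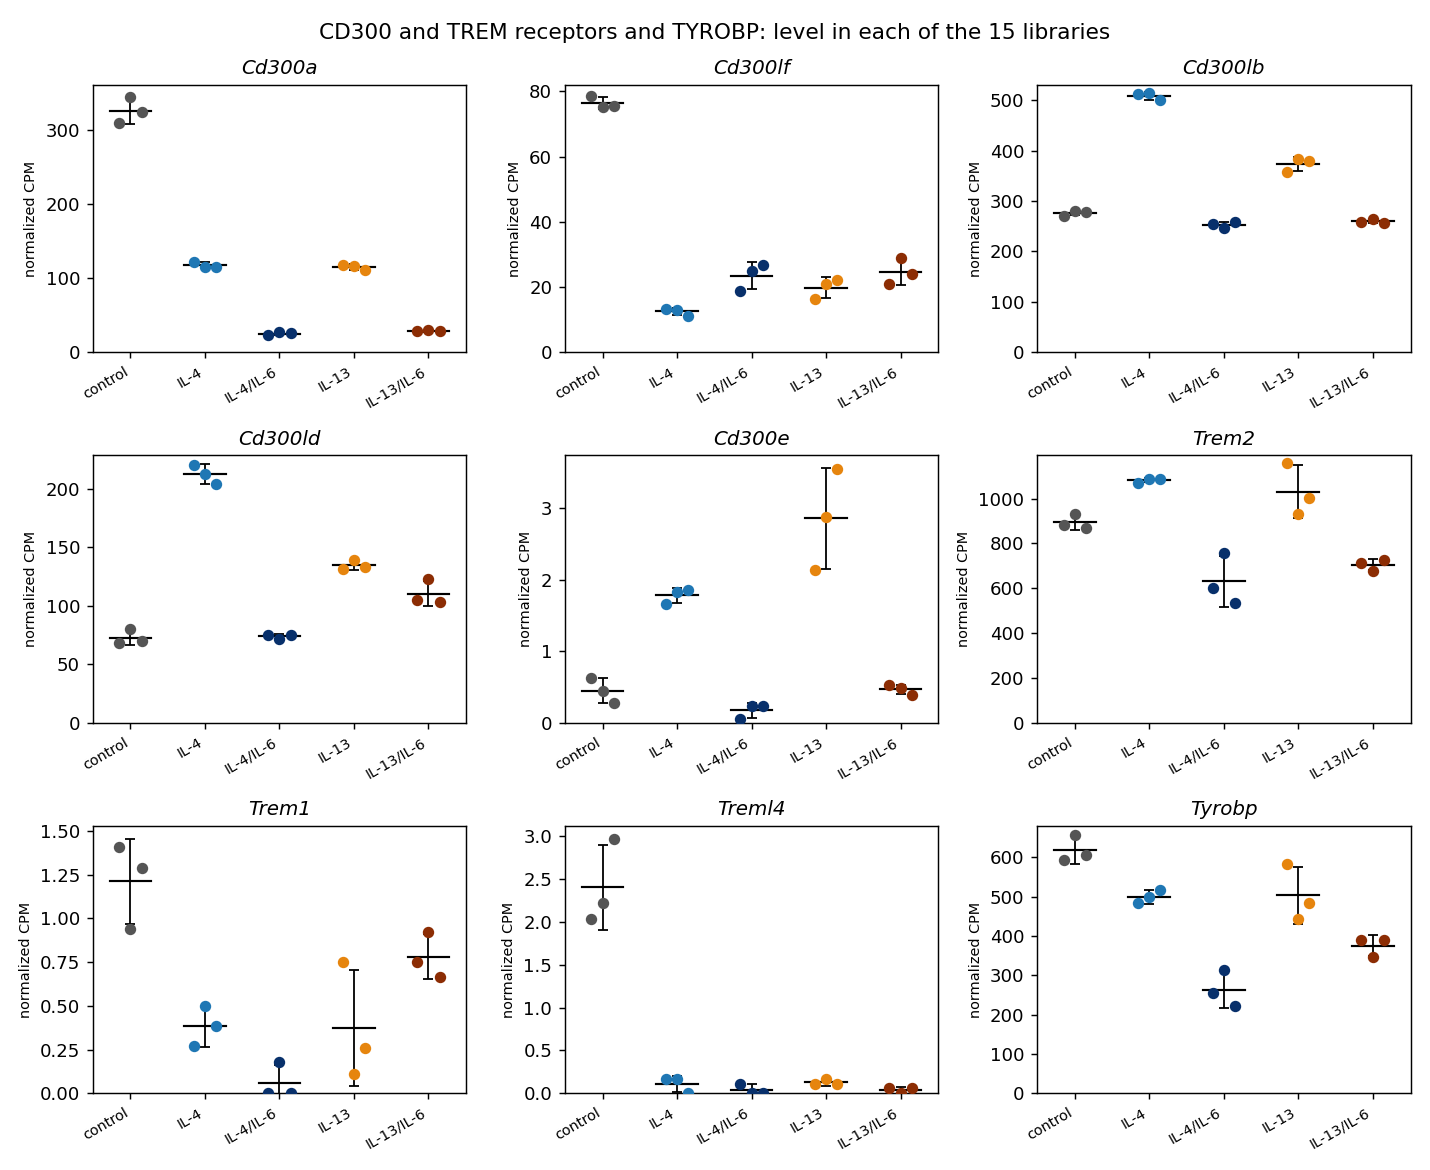
Level of each of the 9 genes in normalized CPM (linear axes from 0) in the 15 libraries. Points are libraries, horizontal lines are group means and bars are SDs (n = 3). *Cd300a* and *Cd300lf* are highest in control, *Cd300lb* and *Cd300ld* are highest in IL-4, *Cd300e* is highest in IL-13, and *Treml4* is close to 0 in all cytokine groups.

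The inhibitory receptor gene *Cd300a*, whose product binds phospholipids on dying cells, was lower with IL-4 or IL-13 and lower again with IL-6. Its level was 308.7, 344.4 and 323.9 normalized CPM in the control libraries. In IL-4 it was 122.3, 114.6 and 115.3, and in IL-13 it was 117.6, 115.9 and 110.3 normalized CPM. The single-cytokine groups overlapped each other and stood far below control. With IL-6, the level was 23.4, 26.7 and 25.3 normalized CPM in IL-4/IL-6 and 28.5, 29.7 and 27.98 in IL-13/IL-6. No library with IL-6 came near any library without it. The log2 fold change was -1.47 (SE 0.0642) for IL-4 over control and -1.51 (SE 0.0643) for IL-13 over control, and co-addition of IL-6 went with a further log2 difference of -2.22 (SE 0.0693) on IL-4 and -1.997 (SE 0.0683) on IL-13, that is 4.67-fold and 3.99-fold lower. *Cd300a* was the only one of the 9 genes that was at least 2-fold lower, with replicates that did not overlap, in all 4 comparisons, as were 0.882% of all tested genes.

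*Cd300lf*, which encodes the other inhibitory receptor (also CLM-1), known to associate with the IL-4 receptor alpha chain, was also highest in control. The control libraries held 78.6, 75.2 and 75.5 normalized CPM, against 13.3, 13.01 and 11.1 in IL-4 and 16.3, 21.1 and 22.2 in IL-13. These were 6.12-fold and 3.85-fold lower than control (log2 fold changes -2.61, SE 0.143, and -1.95, SE 0.137). Co-addition of IL-6 did not lower it further. The levels were 18.8, 24.8 and 26.8 normalized CPM in IL-4/IL-6, all above the IL-4 libraries, with a log2 fold change of 0.91 (SE 0.146). Without replicate 1 of IL-4/IL-6 this value was 1.02. In IL-13/IL-6 the levels were 20.9, 28.8 and 24.0 normalized CPM, which overlapped those in IL-13 (log2 fold change 0.31, SE 0.14). *Cd300lf* was thus the only one of the 9 genes that IL-6 co-addition left higher on IL-4 with separate replicates (24.3% of all tested genes were), and all libraries with a cytokine remained below all control libraries.

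The activating receptor genes *Cd300lb* and *Cd300ld* showed the opposite pattern to *Cd300lf*. *Cd300lb*, whose product (CLM-7, LMIR5) pairs with TYROBP, was at 271.1, 279.8 and 278.3 normalized CPM in control and at 511.4, 515.0 and 500.0 in IL-4. It was at 357.3, 383.1 and 379.3 normalized CPM in IL-13. The 3 groups did not overlap, with IL-4 highest (log2 fold change over control 0.88, SE 0.0518) and IL-13 between (0.43, SE 0.0516). In IL-4/IL-6 the libraries held 255.1, 246.4 and 257.3 normalized CPM, and in IL-13/IL-6 259.0, 263.3 and 256.6. Both sets lay below control and overlapped each other, so that with IL-6 the level no longer differed by cytokine beyond the spread. With IL-6 the log2 fold change was -1.01 (SE 0.052) on IL-4, just past 2-fold, and -0.52 (SE 0.0517) on IL-13.

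*Cd300ld* (CLM-5) encodes a further activating member of the family. Its level was 68.3, 79.7 and 70.1 normalized CPM in control, 220.7, 212.8 and 204.3 in IL-4, and 131.4, 139.5 and 133.0 in IL-13. It was 2.92-fold higher in IL-4 than in control (log2 fold change 1.55, SE 0.0767) and 1.85-fold higher in IL-13 (0.89, SE 0.0761). With IL-6 on IL-4 the level was 74.6, 71.7 and 75.0 normalized CPM, within the range of the control libraries. With IL-6 on IL-13 it was 104.8, 123.0 and 103.4, above all control libraries and only a little below the IL-13 libraries. Co-addition of IL-6 thus went with a log2 difference of -1.53 (SE 0.0767) on IL-4 and -0.29 (SE 0.0751) on IL-13. The difference between these 2 values, -1.24 (SE 0.107), exceeded 2-fold with separate replicates. Among the other 8 genes this held only for the fitted value of *Trem1*, for which no size is given because IL-4/IL-6 was at the limit of detection.

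*Cd300e*, which encodes an activating receptor known from nonclassical (Ly6C-low) monocytes, had the same direction at a level close to the floor. The counts were 12, 8 and 5 in control, 31, 33 and 34 in IL-4, and 40, 51 and 69 in IL-13. They were 1, 4 and 4 in IL-4/IL-6 and 9, 9 and 7 in IL-13/IL-6. In normalized CPM these are 0.625, 0.443 and 0.281 in control, 1.66, 1.83 and 1.86 in IL-4, 2.14, 2.87 and 3.56 in IL-13, 0.0567, 0.236 and 0.23 in IL-4/IL-6 and 0.521, 0.488 and 0.389 in IL-13/IL-6. IL-13 was the highest group, unlike for *Cd300lb* and *Cd300ld*, and the IL-13/IL-6 libraries lay within the range of control. The log2 fold changes were 1.96 (SE 0.34) for IL-4 and 2.64 (SE 0.325) for IL-13 over control, and -3.31 (SE 0.411) and -2.60 (SE 0.325) with IL-6.

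**Figure D2:**
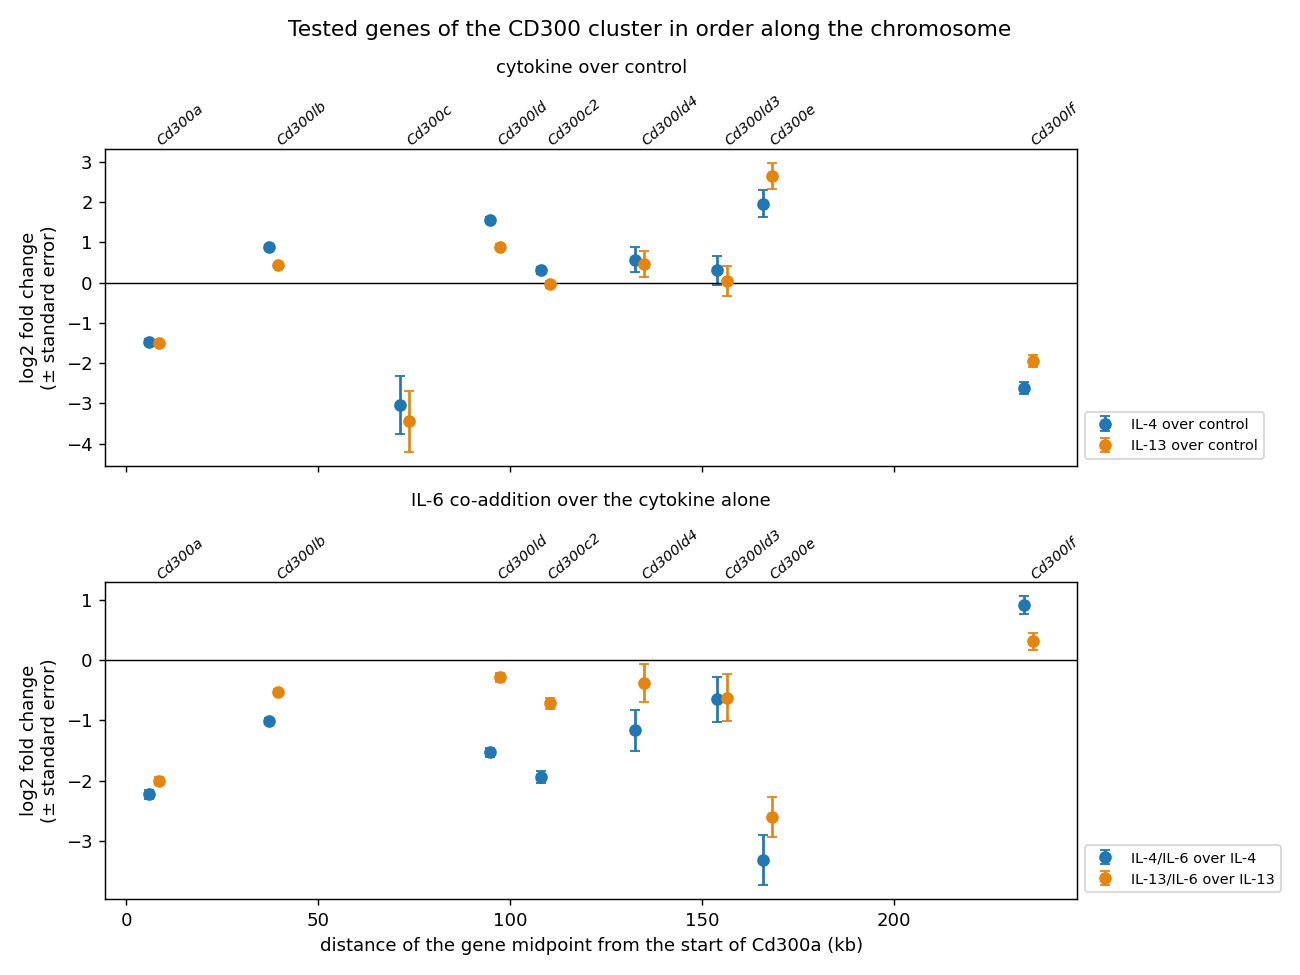
Log2 fold change (points, bars ± SE) of the tested CD300 genes in order along the cluster, against the distance of the gene midpoint from the start of *Cd300a* in kb, upper panel for the cytokine over control and lower panel for IL-6 co-addition. *Cd300c* is not in the lower panel because it was at the limit of detection in both groups with IL-6. In the upper panel the outermost genes *Cd300a* and *Cd300lf* are below 0 with both cytokines, as is *Cd300c* inside the cluster, *Cd300c2* is at -0.04 with IL-13, and in the lower panel *Cd300lf* is the only gene above 0.

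Among the TREM receptors, *Trem2*, whose product senses lipids and apolipoproteins and signals through TYROBP, was the most abundant and the one whose level with IL-4 or IL-13 lay closest to control. It was at 879.9, 932.9 and 867.5 normalized CPM in control and at 1071, 1087 and 1087 in IL-4. In IL-13 it was at 1160, 929.8 and 1002 normalized CPM, which overlapped both other groups. Over control, the log2 fold change was 0.28 (SE 0.0997) for IL-4 and 0.21 (SE 0.0997) for IL-13, the latter 0.15 without replicate 1 of IL-13. With IL-6 the level was 602.6, 756.2 and 534.3 normalized CPM in IL-4/IL-6 and 713.9, 677.3 and 724.5 in IL-13/IL-6, so that all 6 libraries with IL-6 were below all control libraries. The log2 fold change with IL-6 was -0.78 (SE 0.1) on IL-4 and -0.55 (SE 0.1) on IL-13. It was -0.94 without replicate 2 of IL-4/IL-6 and -0.46 without replicate 1 of IL-13.

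*Trem1*, which encodes an activating receptor best known from neutrophils and monocytes, was scarce. Its counts were 27, 17 and 23 in control, 5, 9 and 7 in IL-4, and 14, 2 and 5 in IL-13, where the highest library is the replicate 1 that stood apart. The difference from control was -1.65 (SE 0.516) on the log2 scale for IL-4 and -1.68 (SE 0.516) for IL-13, and the latter was -2.62 without replicate 1 of IL-13. In IL-4/IL-6 the counts were 0, 3 and 0, at the limit of detection (at most 3 counts in each library), which makes the level at least 2.21-fold lower than in IL-4. In IL-13/IL-6 the counts were 13, 17 and 12, and they overlapped those in IL-13 only through its replicate 1. The log2 fold change there was 1.04 (SE 0.548), and 2.01 without that library.

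*Treml4*, whose product binds dying cells and is known from Ly6C-low monocytes and splenic macrophages, was detected above the floor only in control. The counts were 39, 40 and 53 there, against 3, 3 and 0 in IL-4, 2, 3 and 2 in IL-13, 2, 0 and 0 in IL-4/IL-6, and 1, 0 and 1 in IL-13/IL-6. The level was at least 14.7-fold lower in IL-4 and at least 14.9-fold lower in IL-13 than in control (bounds from 3 counts per library). No fold change can be given for IL-6, since the groups with and without it were both at the floor. 

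Markers of other cells, apart from Ly6C-high monocytes, were lower in the cytokine groups than in control, as were *Treml4*, *Trem1*, *Cd300a*, *Cd300lf* and *Tyrobp*. *Cd300e*, also known from Ly6C-low monocytes, had the other direction with IL-4 and with IL-13. The 6 markers of Ly6C-low monocytes summed to between 371.9 and 410.2 normalized CPM in control and to between 18.3 and 89.3 in the cytokine groups, where *Ace* was at 0 in IL-4/IL-6. The 10 markers of neutrophils and their precursors summed to between 487.3 and 576.9 normalized CPM in control, with all 10 above 3 counts, and to between 10.9 and 26.4 in the cytokine groups, where *Ly6g* was at 0 in every group and *Mmp8* made up most of the sum. Dendritic cell markers summed to between 22.6 and 25.4 normalized CPM in control and at most 3.26 elsewhere, mast cell and basophil markers to between 10.97 and 12.3 and at most 2.19, and B and T cell markers to between 10.3 and 10.9 and at most 1.55. The Ly6C-high monocyte list ran otherwise, summing to between 329.2 and 357.9 normalized CPM in control, 203.6 and 224.7 in IL-13, 380.3 and 407.8 in IL-13/IL-6, 560 and 577.7 in IL-4, and 1476 and 1724 once IL-6 was added to IL-4, most of it from *Chil3*. *Chil3* (Ym1) is also used in the study as a marker of M2 macrophages, so that this sum is not a measure of Ly6C-high monocytes alone. In bulk RNA, fewer cells of a type and less RNA per cell cannot be told apart, and the part of such cells in the levels of the 9 genes and the genes of the lists below was not tested.

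*Tyrobp*, the shared adaptor, was lower in each of the 4 comparisons. It was at 593.0, 658.0 and 604.9 normalized CPM in control, at 482.8, 498.3 and 517.3 in IL-4, and at 584.1, 443.4 and 483.9 in IL-13. The single-cytokine groups overlapped each other and lay just below control (log2 fold changes -0.31 and -0.30, SE 0.11 for both, the latter -0.38 without replicate 1 of IL-13). With IL-6 the level was 254.0, 314.0 and 221.3 normalized CPM in IL-4/IL-6 and 390.9, 345.7 and 390.6 in IL-13/IL-6, and these groups did not overlap each other or any group without IL-6. The log2 fold change with IL-6 was -0.92 (SE 0.112) on IL-4 and -0.42 (SE 0.111) on IL-13. It was -1.09 without replicate 2 of IL-4/IL-6 and -0.31 without replicate 1 of IL-13. The activating receptor gene *Cd300lb* and the adaptor *Tyrobp* were thus both lowest in the groups with IL-6, whereas with IL-4 alone the receptor gene was higher and the adaptor gene lower than in control.

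*Trem2* and *Tyrobp* also deviated together among replicates of one group. In replicate 2 of IL-4/IL-6 they were 0.28 and 0.27 above their group means on the log2 scale, and in replicate 3 they were 0.23 and 0.24 below (deviations -0.225 and -0.235). The median deviation of the 10% of tested genes with the shortest exon length was 0.265 and -0.202 in the same libraries, and 0.175 in replicate 1 of IL-13, where *Trem2* deviated by 0.177 and *Tyrobp* by 0.223. Over the 15 libraries the deviations of the 2 genes had a Pearson correlation of 0.974, and the points share their libraries. The gene length in the deposited table is 667 bases for *Tyrobp* and 4945 for *Trem2*. Their differences between groups were also fitted after a length trend was removed from each library. The trend was taken from deviations from the mean of all 15 libraries. It therefore also removes differences between groups that genes of like length share. The part of gene length in these differences was not tested. *Tyrobp* then had log2 fold changes of -0.57 for IL-4 and -0.42 for IL-13 over control, and of -0.9993 on IL-4 and -0.49 on IL-13 with IL-6. The values of *Trem2* moved by less than their spread.

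**Figure D3:**
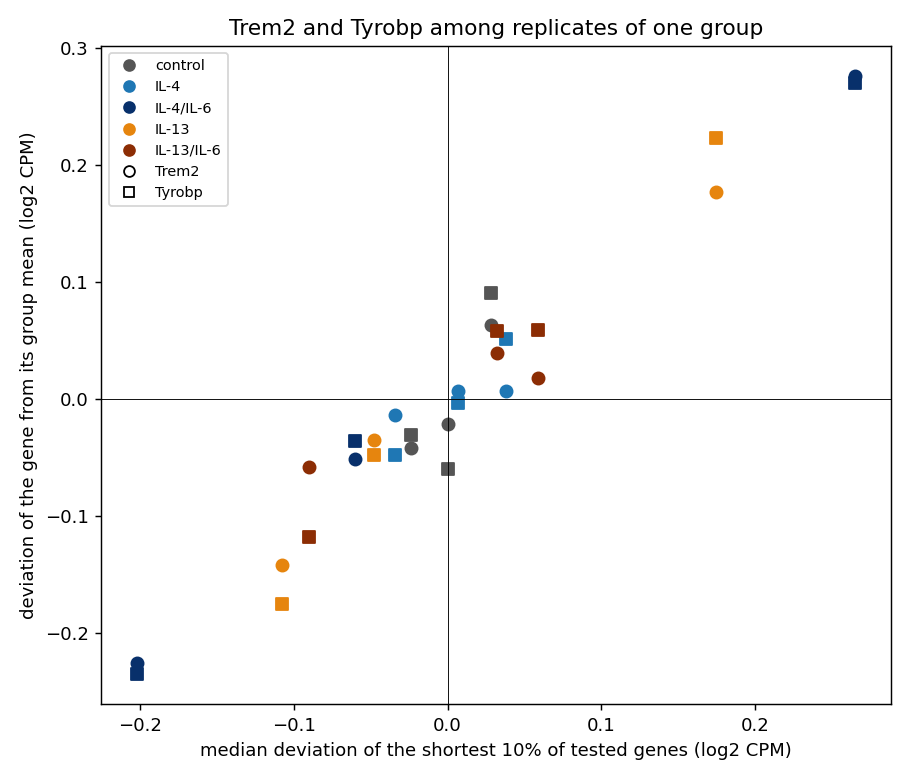
Deviation of *Trem2* (circles) and *Tyrobp* (squares) from the group mean in each of the 15 libraries (vertical axis, log2 CPM) against the median deviation of the shortest 10% of tested genes in the same library (horizontal axis, log2 CPM), colored by group. The library at the upper right is replicate 2 of IL-4/IL-6, with 0.265 on the horizontal axis.

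Counted together, 2 of the 9 genes were at least 2-fold higher with separate replicates in IL-4 than in control (*Cd300ld* and *Cd300e*) and 4 were lower (*Cd300a*, *Cd300lf*, *Trem1* and *Treml4*). Over all 13938 tested genes the same rule held for 9.93% higher and 16.3% lower. In IL-13, 1 gene was higher (*Cd300e*) and the same 4 were lower, against 7.76% and 12.7% of all genes. The IL-4 and IL-13 comparisons share the control libraries. With IL-6 on IL-4, no gene was higher and 5 were lower (*Cd300a*, *Cd300e*, *Cd300lb*, *Cd300ld* and *Trem1*), against 4.51% and 7.78% of all genes. With IL-6 on IL-13, no gene was higher and 2 were lower (*Cd300a* and *Cd300e*), against 3.32% and 4.76%. Leaving out replicate 2 of IL-4/IL-6, or upper-quartile scaling, brought *Tyrobp* past 2-fold on IL-4, and removing the length trend put *Cd300lb* just inside it (-0.9965 on the log2 scale). The difference of the 2 IL-6 effects was at least 2-fold, with separate replicates, for *Cd300ld* and, at the limit of detection in IL-4/IL-6 and so not counted, for *Trem1*, against 0.926% of all genes in the positive and 1.18% in the negative direction. Since the genes were selected with such values in view, nothing is read from these shares.

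**Figure D4:**
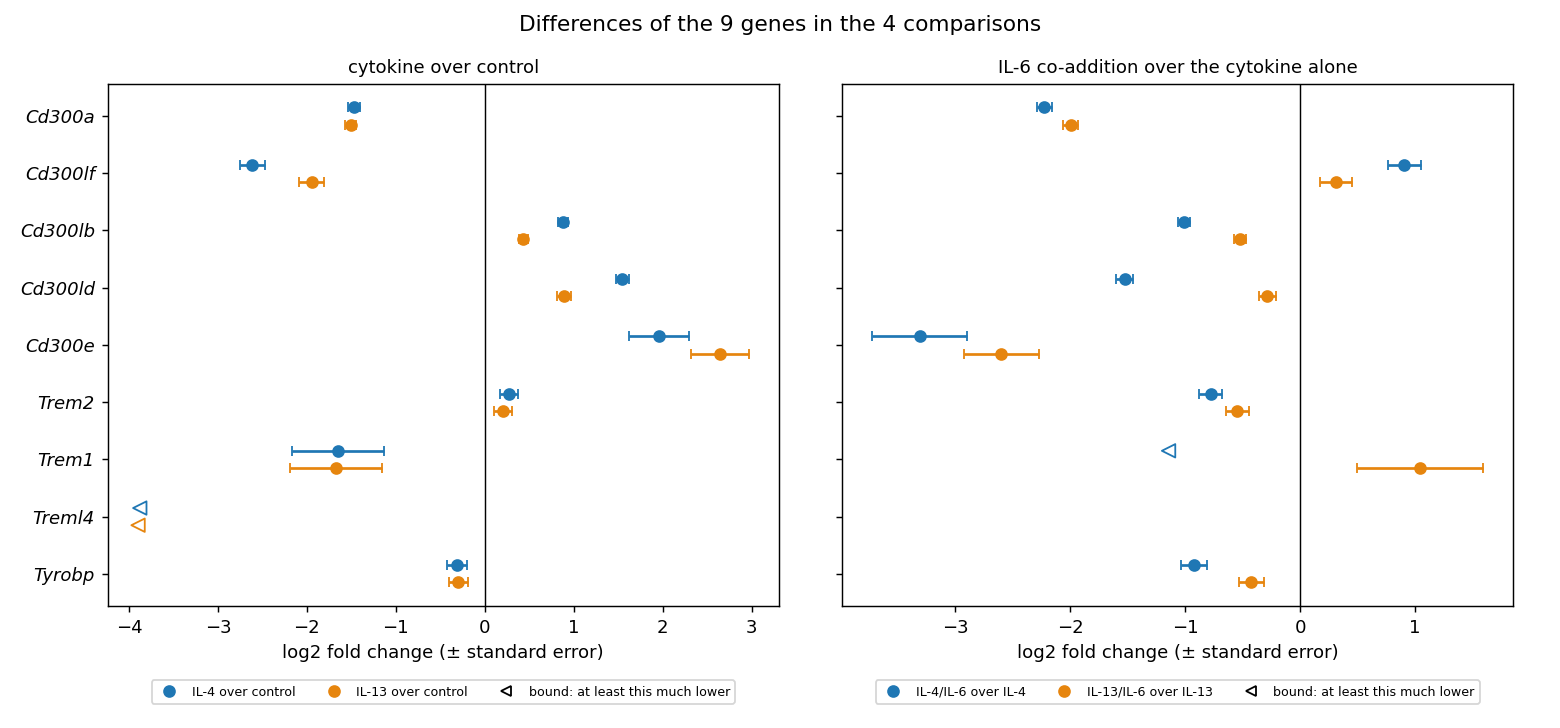
Log2 fold change (circles, bars ± SE) of the 9 genes, left for IL-4 and IL-13 over control and right for IL-6 co-addition over the cytokine alone. Open triangles are bounds for groups at the limit of detection, and *Treml4* has no value on the right. On the right, *Cd300lf* and, for IL-13, *Trem1* are the only genes above 0.

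The 2 IL-6 comparisons share no library. In both, 6 of the 9 genes were lower with separate replicates (*Cd300a*, *Cd300e*, *Cd300lb*, *Cd300ld*, *Trem2* and *Tyrobp*), as were 13.8% of all tested genes. For 2 of them, *Cd300a* and *Cd300e*, the difference was at least 2-fold in both (3.59% of all tested genes). The median log2 fold change of the members was -1.27 on IL-4 (-1.08 with *Trem1* at its bound) and -0.47 on IL-13, over the 8 genes with a value, and the median of all tested genes was 0.04 and 0.01. Over control, the median of the members was -0.31 for IL-4 and -0.30 for IL-13, against -0.05 and -0.02 for all genes. For each of the 6 genes the difference was more negative on IL-4 than on IL-13, as it was for 79.6% of the 1927 tested genes that were lower in both. For 3 of the 6 (*Cd300a*, *Cd300lb* and *Cd300ld*) the replicates separated that difference, as they did for 21.7% of the 1927, and for *Cd300e*, *Trem2* and *Tyrobp* they did not.

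**Figure D5:**
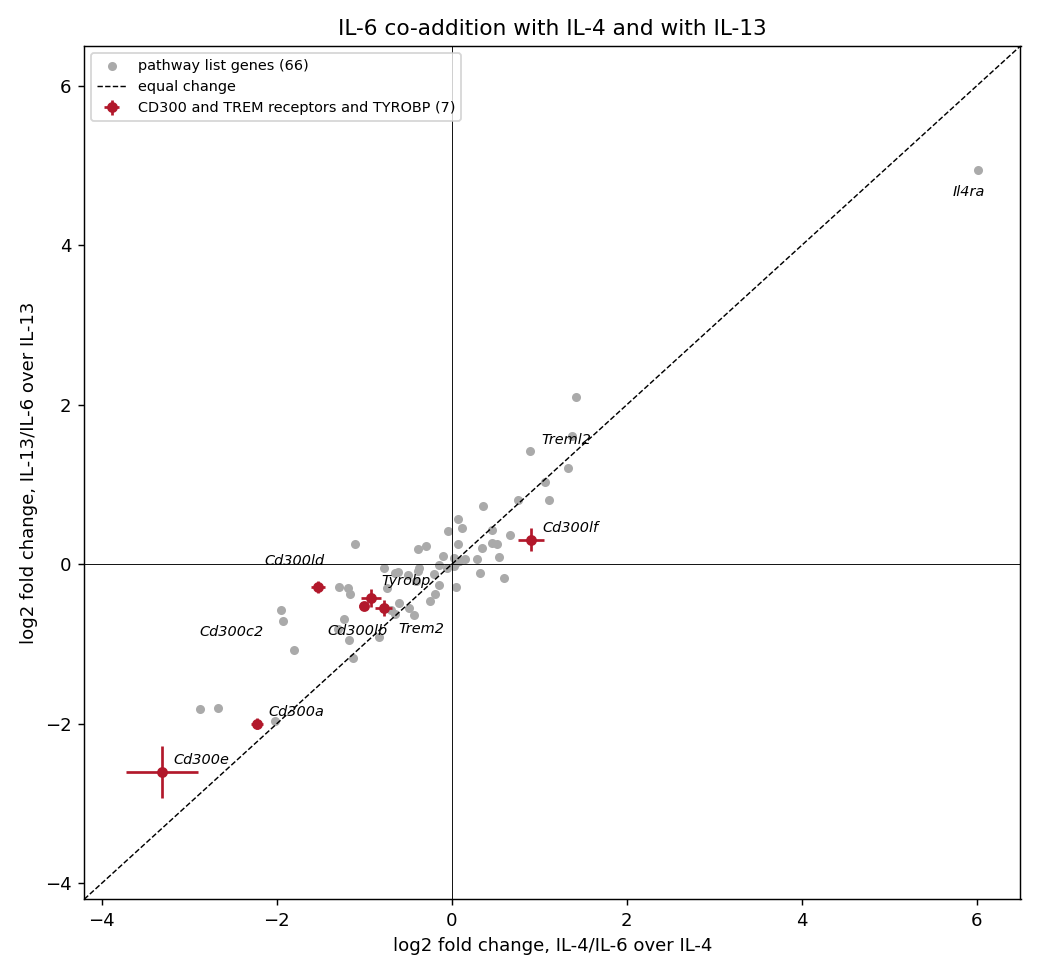
Log2 fold change with IL-6 on IL-4 (horizontal) and on IL-13 (vertical) for the 7 members with both values (red, bars ± SE) and 66 genes of the pathway lists (grey). The dashed line marks equal change. *Cd300ld* lies far above the line at -1.53 and -0.29, and *Il4ra* lies at the upper right at 6.02 and 4.94.

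The genes most alike in pattern were found among 12049 genes by the Pearson correlation of log2 CPM over the 15 libraries, which share the 5 groups. They were *Creg1* (0.995), *Siglecf* (0.993) and *Mamdc2* (0.991) for *Cd300a*, and *Hacd4* (0.981), *Arhgap19* (0.981) and *Atxn1* (0.98) for *Cd300lf*. *Cd300lb* was most like *Irf4* (0.979), *Anxa4* and *Igf1* (0.977 both), and *Cd300ld* was most like *Arhgap6* (0.976), *Rmdn2* (0.954) and *Vegfc* (0.951). For *Cd300e* they were *Brip1* (0.979), *Bard1* (0.97) and *Rgs1* (0.965), and for *Trem2* they were *Tnfsf12* (0.969), *Arl6ip5* (0.968) and *Oip5* (0.967). *Tyrobp* was most like *Fabp3* (0.991), *Fuca1* (0.985) and *Cd48* (0.981). *Treml4* was most like *Cd4* and *Slc39a4* (0.977 both) and *Nat8l* (0.973), and *Trem1* was most like *Gm20703* (0.916), *Ptpn18* (0.912) and *Mta3* (0.897). Between members, the highest correlation was that of *Cd300lb* with *Cd300ld* (0.908).

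The other genes of the pathway were tested by the quasi-likelihood method of edgeR (Benjamini-Hochberg adjusted p over all 13938 genes, threshold 0.05), and rose, fell or changed is written of these calls only. Of 76 listed genes 74 were tested. The lists were chosen with earlier results of these data known, and the p-values do not account for that choice. Nothing is therefore read from the counts of a list beside the shares of all genes. With IL-4, 19 rose and 39 fell (all tested genes: 32.1% rose and 35.9% fell), and with IL-13, 17 rose and 38 fell (29.0% and 31.1%). With IL-6 on IL-4, 15 rose and 30 fell (20.7% and 18.7%), and with IL-6 on IL-13, 16 rose and 21 fell (12.1% and 13.5%). The scaling mattered for the first of these backgrounds. Over all genes, 2885 rose and 2603 fell with IL-6 on IL-4, and with upper-quartile scaling 2073 rose and 3245 fell.

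Of the 10 other CD300 and TREM genes, 8 were tested, and *Cd300ld2* and *Cd300ld5* were too low. With IL-4, 1 rose and 4 fell, and with IL-13, 1 rose and 4 fell. With IL-6, 1 rose and 3 fell on IL-4, and 1 rose and 2 fell on IL-13. The median log2 fold change of the list was -0.61 and -0.97 for the single cytokines and -0.91 and -0.67 with IL-6 (-0.65 and -0.21 with genes at the limit of detection set to their bounds). *Cd300c2* (CLM-4), which encodes a further activating receptor that pairs with TYROBP and lies next to *Cd300ld*, was measured at a mean of 199.3 normalized CPM in control, 245.8 in IL-4, 64.4 in IL-4/IL-6, 193.1 in IL-13 and 117.7 in IL-13/IL-6. It fell by 1.93 on the log2 scale with IL-6 on IL-4 (SE 0.0966, adjusted p = 4.22e-11 by edgeR) and changed by -0.72 on IL-13 (SE 0.0933, adjusted p = 1.33e-05), and these effects differed (-1.22, SE 0.133, adjusted p = 1.36e-05). Its within-group deviations moved with those of short genes as well (0.241 in replicate 2 of IL-4/IL-6), and without that library its IL-6 effects were -2.08 on IL-4 and -0.73 on IL-13. Without replicate 1 of IL-13 the latter was -0.65. *Cd300lg*, which encodes an endothelial member of the family, fell with IL-6 (-2.02 on IL-4 and -1.97 on IL-13, adjusted p = 2.13e-05 and 1.93e-05 by edgeR) at levels of 0.694 to 3.73 normalized CPM. It rose with IL-13 (0.61, adjusted p = 0.0324 by edgeR), a call that was lost without replicate 1 of IL-13 (0.49, adjusted p = 0.116).

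The remaining TREM genes fell with either cytokine. *Treml1*, known from platelets, had 22.0 normalized CPM in control and between 5.76 and 6.34 in the other groups (log2 fold change -1.80 with IL-4, adjusted p = 5.86e-10, and -1.89 with IL-13, adjusted p = 4.63e-10, both by edgeR), and with IL-6 its fitted change was -0.06 (adjusted p = 0.755) and -0.05 (adjusted p = 0.843). *Treml2* fell with IL-4 (-1.44) and with IL-13 (-1.99), and rose with IL-6 by 0.90 on IL-4 (adjusted p = 3.53e-06 by edgeR) and by 1.42 on IL-13 (adjusted p = 3.91e-08), from 11.7 to 21.8 and from 7.94 to 21.2 normalized CPM. *Trem3* was at least 7.66-fold lower with IL-4 (adjusted p = 2.07e-05 by edgeR) and fell with IL-13 (-3.06, adjusted p = 0.000157). *Cd300c* fell from 1.25 normalized CPM to 0.144 and 0.109 (adjusted p = 0.00147 and 0.000999 by edgeR). *Trem3* and *Cd300c* passed the count minimum only through control, so that their direction with the cytokines was largely set by that minimum. *Cd300ld4* fell with IL-6 on IL-4 (-1.16, SE 0.338, adjusted p = 0.0108 by edgeR) and the fitted change of *Cd300ld3* was -0.65 (adjusted p = 0.184), but 82.1% or more of the 50-base stretches of these genes occur in another gene, which leaves their counts uncertain.

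Of 12 other receptors known to pair with TYROBP, 2 rose and 7 fell with IL-4, 3 rose and 7 fell with IL-13, and with IL-6 none rose while 8 fell on IL-4 and 4 on IL-13. The median log2 fold change was -0.90 with IL-4 and -1.16 with IL-13, and with IL-6 it was -1.15 on IL-4 and -0.42 on IL-13, also with genes at the limit of detection set to their bounds. *Cd33*, a sialic acid receptor, fell from 113.8 normalized CPM in control to 8.58 in IL-4 and 12.2 in IL-13 (-3.73 and -3.23, adjusted p = 5.6e-13 and 3.51e-12 by edgeR). *Siglech*, known from plasmacytoid dendritic cells, had 5.48 normalized CPM in control and 0 counts in all 12 cytokine libraries, at least 33.5-fold lower with IL-4 and 34.0-fold lower with IL-13. It passed the count minimum only through control, so that its direction was largely set by that minimum. *Klrk1*, the NKG2D receptor gene, was at least 6.68-fold lower with IL-4 and 6.78-fold lower with IL-13. *Siglec15*, known from osteoclast precursors, had a low level that rose with IL-4 and IL-13 (2.77 and 2.42) and was at least 4.51-fold lower with IL-6 on IL-4 (adjusted p = 0.000758 by edgeR). There *Pilrb2* and *Cd200r3* were at least 3.56-fold and 3.34-fold lower. The IL-6 effects on *Sirpb1a* (-1.36, SE 0.31), *Sirpb1b* (-1.004, SE 0.224) and *Clec5a* (-0.88, SE 0.13) were more negative on IL-4 than on IL-13 (adjusted p = 0.00986, 0.00864 and 0.00027 by edgeR). The mean level of *Clec5a*, which encodes MDL-1, was 49.4 normalized CPM in IL-4, 21.7 in IL-4/IL-6, 44.9 in IL-13 and 36.4 in IL-13/IL-6.

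Of the 20 activating adaptors and kinases, 4 rose and 12 fell with IL-4, and 3 rose and 10 fell with IL-13, while IL-6 raised 5 and lowered 6 on IL-4, and raised 6 and lowered 4 on IL-13. Their median log2 fold change was -0.36 and -0.19 for the single cytokines and 0.04 and 0.03 with IL-6. *Syk*, the kinase that docks to TYROBP, fell from 591.2 normalized CPM in control to 225.5 with IL-4 (-1.39, SE 0.0925, adjusted p = 7.37e-10 by edgeR) and to 249.8 with IL-13 (-1.24, SE 0.0921, adjusted p = 4.13e-09). The Src kinase gene *Fgr* fell with both (-1.57 and -1.36, adjusted p = 1.58e-09 and 1.24e-08 by edgeR). *Malt1*, a paracaspase downstream of SYK, fell with IL-6 (-1.80 on IL-4 and -1.07 on IL-13), as did the adaptor gene *Blnk* (-1.23 and -0.69). *Vav1*, an exchange factor gene, fell with IL-4 (-0.97, adjusted p = 2.53e-10 by edgeR) and IL-13 (-0.54) and rose with IL-6 by 0.75 on IL-4 (adjusted p = 1.49e-08) and 0.81 on IL-13 (adjusted p = 1.14e-08). *Pik3ap1* rose with IL-13 (0.78, adjusted p = 4.99e-05 by edgeR). *Tec* was 124.0 in IL-4/IL-6 against 82.1 normalized CPM in IL-4, and the IL-6 effects on it differed by 0.76 (adjusted p = 3.6e-05 by edgeR). The other ITAM adaptor gene *Fcer1g* was at 603.7 normalized CPM in control, 594.9 in IL-4, 556.1 in IL-4/IL-6, 606.7 in IL-13 and 650.0 in IL-13/IL-6. Its fitted change with IL-6 on IL-4 was -0.29 without replicate 2 of IL-4/IL-6 (adjusted p = 0.00634 by edgeR). Without replicate 1 of IL-13 it was -0.12 (adjusted p = 0.35 by edgeR). *Hcst*, the DAP10 adaptor gene, was between 6.79 and 10.3 normalized CPM.

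Of the 10 inhibitory phosphatases and brakes, 4 rose and 4 fell with IL-4, 3 rose and 4 fell with IL-13, and with IL-6 3 rose and 4 fell on IL-4 and 2 rose and 1 fell on IL-13, with medians of -0.071 and 0.00315 for the single cytokines and 0.05 and 0.01 with IL-6. The adaptor gene *Dok2*, an inhibitor of Ras signaling, rose from 36.8 normalized CPM to 403.8 with IL-4 (3.46, SE 0.0944, adjusted p = 1.37e-14 by edgeR) and 317.5 with IL-13 (3.11, SE 0.0932, adjusted p = 6.47e-14). The ubiquitin ligase gene *Cblb* rose by 1.54 and 0.79, and *Ubash3b*, a phosphatase gene, by 1.13 and 1.04. *Ptpn6* (SHP-1), the phosphatase recruited by ITIMs, fell with IL-4 and IL-13 (-0.71 and -0.35) and with IL-6 (-0.74 on IL-4 and -0.29 on IL-13, adjusted p = 2.15e-07 and 0.00478 by edgeR). *Inpp5d* (SHIP-1) fell with IL-4 and IL-13 (-0.92 and -0.41) and rose with IL-6 by 0.66 and 0.37 (adjusted p = 1.45e-05 and 0.00512 by edgeR).

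Of the 9 ligands, partners and shedding proteases, 2 rose and 5 fell with IL-4, 3 rose and 5 fell with IL-13, and with IL-6 1 rose and 3 fell on IL-4 and 1 rose and 4 fell on IL-13, with medians of -0.21, -0.30, -0.20 (-0.19 with 1 gene at its bound) and -0.14 in that order. The gene that rose with IL-6 was *Il4ra*, whose product is the partner of CD300LF. It was at 90.3 normalized CPM in control, 35.7 in IL-4, 51.0 in IL-13, 2312 in IL-4/IL-6 and 1563 in IL-13/IL-6, a rise of 6.02 (SE 0.0872, adjusted p = 4.58e-18 by edgeR) on IL-4 and 4.94 (SE 0.0826, adjusted p = 5.06e-17) on IL-13. *Cd300lf* and *Il4ra* were both lower with IL-4 or IL-13 than in control. *Clu* and *Pglyrp1*, which encode a TREM2 and a TREM1 ligand, fell with IL-4 (-6.73 and -4.53, adjusted p = 8.64e-10 and 3.09e-07 by edgeR) and with IL-13 (-5.95 and -5.04). *Apoe*, which encodes an abundant TREM2 ligand, was between 7905 normalized CPM in IL-4/IL-6 and 10340 in control. *Adam10*, a protease that sheds TREM2, fell with IL-6 on IL-4 (-0.50, adjusted p = 6e-05 by edgeR), and the RNA-binding protein gene *Cirbp* fell on both (-0.70 on IL-4 and -0.57 on IL-13). *Lgals3*, the galectin-3 gene, rose with IL-4 and IL-13 by 1.07 and 0.71 and fell with IL-6 on IL-13 (-0.46, adjusted p = 0.00304 by edgeR). On IL-4 it fell with IL-6 by 0.43 without replicate 2 of IL-4/IL-6 (-0.4349, adjusted p = 9.21e-05 by edgeR). Without replicate 1 of IL-13 that value was -0.27 (adjusted p = 0.025 by edgeR).

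Of the 15 genes of the lipid and disease-associated program linked to TREM2, 6 rose and 7 fell with IL-4, 4 rose and 8 fell with IL-13, 5 rose and 6 fell with IL-6 on IL-4, and 6 rose and 6 fell with IL-6 on IL-13, with medians of -0.14, -0.14, 0.12 and 0.21 in that order. *Lpl*, the lipoprotein lipase gene, rose with IL-4 and IL-13 by 1.57 and 1.33 (adjusted p = 3.22e-12 and 3.66e-11 by edgeR) and fell with IL-6 (-1.30 on IL-4 and -0.81 on IL-13). *Axl*, a receptor gene for dying cells, fell in all 4 comparisons, from 312.0 normalized CPM in control to 48.4 with IL-4 (6.57 once IL-6 was added) and to 63.5 with IL-13 (18.1 once IL-6 was added). *Itgax* (CD11c) fell with IL-6 (-2.68 on IL-4 and -1.80 on IL-13, adjusted p = 3.03e-13 and 7.12e-11 by edgeR). *Spp1* (osteopontin) rose with IL-6 by 1.42 and 2.099 (adjusted p = 9.68e-09 and 1.46e-10 by edgeR). *Cst7* rose with IL-4 by 1.57 (adjusted p = 1.78e-08 by edgeR), and with IL-6 by 1.37 on IL-4 and 1.61 on IL-13. *Fabp5* fell with IL-4 (-1.46, adjusted p = 1.09e-11 by edgeR) and IL-13 (-1.36, adjusted p = 3.98e-11) and rose with IL-6 by 1.07 and 1.03, from 487.1 to 1019 and from 522.5 to 1068 normalized CPM.

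The IL-6 effect on IL-4 differed from that on IL-13 for 21 of the 74 tested pathway genes, with a positive difference for 5 and a negative one for 16. Over all tested genes the difference passed the test for 3.22% in the positive and 4.42% in the negative direction, which are 449 and 616 genes, and 352 and 757 with upper-quartile scaling. Since the lists were chosen with earlier results of these data known, nothing is read from these shares.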

How the data were processed

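RNA of 15 mouse BMDM libraries (5 groups, 3 replicates) was sequenced by a service company. The authors deposited raw counts per gene (53465 Ensembl identifiers) and FPKM values for 26080 genes, which divide the counts by gene length and library total. The submitters' notes list CASAVA, Bowtie2 2.2.3, HISAT2 2.1.0, TopHat2 and DESeq2 with GRCm38. Their roles, the counting tool and the use of strand are not given in the sources used here. Symbols were found for 53274 identifiers, and coordinates are those of GENCODE for GRCm38, whose exon lengths match the deposited FPKM of the members to within 1 base.

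Differences were fitted with edgeR 4.0.16 under R 4.3.3 (filterByExpr with a minimum count of 10, 13938 genes; TMM factors; 1 quasi-likelihood fit of all 15 libraries; Benjamini-Hochberg adjustment; threshold 0.05). Members and lists were chosen with earlier results of these data known, and members were given no test. Separate replicates means that the ranges of the 2 groups do not overlap. The genes named are the 9 members, the 3 genes most alike to each (mean CPM of at least 1, prior count 2), the other CD300 and TREM genes, up to 3 called genes with the largest change per list and comparison, and *Hcst*, *Fcer1g*, *Syk*, *Il4ra* and *Apoe*, except that some genes and alleles are not reported here. A group was at the limit of detection with at most 3 counts in each library. Marker lists covered macrophages, neutrophils, Ly6C-high and Ly6C-low monocytes, dendritic cells, mast cells with basophils, and B and T cells. Promoter windows were taken from a RefSeq table of GRCm38.p6 (8 of the 9 members and 6 of the 10 other family genes matched). The fit was tested on simulated data. Alternatives were DESeq2 1.42.0, upper-quartile scaling, other count filters, fewer libraries in the fit, a replicate block, other scales, the omission of each library and, chosen after seeing the data, removal of a gene length trend (5 degrees of freedom). Counting precision follows from 17001352 to 18918686 counts per library.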

Additional observations from a re-analysis of the deposited data

Results flagged for a closer look

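Among the pathway genes named here, 16 changed differently with IL-6 on IL-4 than with IL-6 on IL-13 by a test of the difference itself (edgeR's quasi-likelihood test). The difference (effect on IL-4 minus effect on IL-13, log2 scale) was -1.22 for *Cd300c2*, -1.36 for *Sirpb1a*, -1.004 for *Sirpb1b* and -0.88 for *Clec5a* among the receptors. It was -0.73 for *Malt1*, -0.54 for *Blnk* and 0.76 for *Tec* among the kinases and their partners. It was -0.54 for *Ubash3b*, -0.53 for *Dok2*, -0.44 for *Ptpn6* and 0.45 for *Dok3* among the brakes, 1.08 for *Il4ra*, and -1.07 for *Axl*, -0.88 for *Itgax*, -0.68 for *Spp1* and -0.49 for *Lpl* in the program linked to TREM2. The call of *Dok3* was lost without replicate 2 of IL-4/IL-6 (0.37, adjusted p = 0.0547 by edgeR) and without replicate 1 of IL-13 (0.37, adjusted p = 0.085), the libraries that stood apart, and the other 15 kept theirs in both of these fits. The IL-4 and IL-13 doses (10 and 40 ng/ml) also differed between these arms, and dose and cytokine cannot be told apart.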

How the results depend on the processing

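Over 24 settings (9 other settings and 15 omissions of a library), the fold changes of the members gave 959 values for 41 results, of which 931 moved by less than the spread, 28 moved by more and 0 changed sign. A filter of 50 counts in 3 libraries removed *Cd300e*, *Trem1* and *Treml4*, and the members at least 2-fold apart were then 1 higher and 2 lower for IL-4, 0 and 2 for IL-13, 3 lower for IL-6 on IL-4 and 1 lower for IL-6 on IL-13. Leaving out each library in turn, the number higher with IL-6 was between 0 and 1 on IL-4 (1 without replicate 1 of IL-4/IL-6) and between 0 and 1 on IL-13 (1 without replicate 1 of IL-13), and the number lower with IL-6 on IL-4 was between 5 and 6. Without replicate 2 of IL-4/IL-6, the difference of *Trem1* with IL-6 on IL-4 was fitted at -5.84, since this leaves that group at 0 counts. The pathway genes called were between 51 and 58 for IL-4, 49 and 56 for IL-13, 44 and 52 for IL-6 on IL-4, 36 and 38 for IL-6 on IL-13 and 18 and 27 for the difference of the IL-6 effects, and with a library left out between 54 and 59, 48 and 57, 42 and 54, 35 and 38, and 17 and 26 in the same order. No pairing of the libraries by replicate number was seen (correlations of same-numbered deviations between -0.276 and 0.163, above 0.1 in 3 of 30). Pairs with different numbers lay between -0.349 and 0.393. The libraries that stood apart weigh on these correlations, so that they cannot exclude a pairing. With a replicate block the calls were 57, 53, 45, 36 and 19. At this depth *Cd300e*, *Trem1* and *Treml4* rest on fewer than 70 counts per library.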
